A study of Mus musculus with 8 samples.

Results

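The Ah receptor pathway is represented here by 10 genes, chosen by name, which handle 7,12-dimethylbenz(a)anthracene (DMBA) in skin: *Ahr*, *Arnt*, *Ahrr*, *Tiparp*, *Cyp1a1*, *Cyp1a2*, *Cyp1b1*, *Cyp2s1*, *Ephx1* and *Por*. All 10 were found among the 21095 genes that the arrays name, through 15 probes. Expression was measured in whole skin of female mice by 1-colour Agilent arrays, with 2 arrays in each of 4 groups: CD109+/+ and CD109-/- skin 24 h after DMBA, and CD109+/+ and CD109-/- skin given acetone, the solvent of DMBA, which the sample names call untreated. The CD109+/+ mice were wild-type FVB/N, and the CD109-/- mice carried a germline deletion of *Cd109*, which encodes a membrane glycoprotein that binds TGF-β, backcrossed onto FVB/N. The age of these mice, the DMBA dose given to them and whether each array holds 1 mouse are not given in the sources used here, and the p-values reflect the spread between arrays, which may be technical.

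The Ah receptor is a ligand-activated transcription factor that waits in the cytoplasm with Hsp90 and its cochaperones. Polycyclic aromatic hydrocarbons such as DMBA bind it, it enters the nucleus and pairs with Arnt, and the pair binds a short core sequence in the xenobiotic response elements of its target genes. Among these targets are the cytochromes P450 of family 1, which oxidize DMBA with electrons delivered by Por, and the microsomal epoxide hydrolase Ephx1, which together give the diol epoxides that bind DNA, as well as *Ahrr* and *Tiparp*, whose products dampen the receptor. In mouse skin the pathway is known for converting DMBA to the initiating carcinogen.

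The core sequence was looked for in the promoters to show which members carry it close to their start sites. RefSeq windows of 300 bases, from 250 before to 50 after the annotated start, were at hand for 9 of the 10 members in build GRCm38.p6. The core GCGTG, on either strand, lay in the windows of 6 of these 9: *Arnt*, *Ahrr*, *Cyp1a1*, *Cyp1b1*, *Por* and *Tiparp*. It lay in 32.4% of all 32851 promoter windows of the same length. *Ahrr* and *Por* held 3 cores each, and 3.91% of all windows held 3 or more. The longer form TNGCGTG, which contains the core, was found in *Ahrr* alone among the members, and in 5.07% of all windows. These matches describe letters in a window and are no evidence of binding. Promoters of 5 members whose array values are described next are given 5′ to 3′ on the strand of the gene, with GCGTG or its reverse complement in capitals. *Cyp1a1*, *Ahrr*, *Tiparp* and *Cyp1b1* are textbook targets of the receptor, and *Cyp2s1*, which holds no core in this window, is shown for contrast. They lie at chr9:57697363-57697662 (plus strand), chr13:74292282-74292581 (minus), chr3:65528197-65528496 (plus), chr17:79715012-79715311 (minus) and chr7:25816476-25816775 (minus).
Cyp1a1: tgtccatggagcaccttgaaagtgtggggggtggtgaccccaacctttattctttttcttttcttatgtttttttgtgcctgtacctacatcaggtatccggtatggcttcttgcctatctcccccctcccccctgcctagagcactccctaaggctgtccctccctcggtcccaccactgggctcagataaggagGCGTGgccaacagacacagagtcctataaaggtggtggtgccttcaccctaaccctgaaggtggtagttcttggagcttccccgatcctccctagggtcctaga
Ahrr: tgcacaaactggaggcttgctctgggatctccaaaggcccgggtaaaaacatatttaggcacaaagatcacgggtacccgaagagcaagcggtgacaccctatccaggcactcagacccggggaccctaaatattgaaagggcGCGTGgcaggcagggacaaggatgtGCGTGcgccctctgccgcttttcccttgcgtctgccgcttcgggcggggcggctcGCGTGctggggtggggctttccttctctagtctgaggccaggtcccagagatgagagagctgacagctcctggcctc
Tiparp: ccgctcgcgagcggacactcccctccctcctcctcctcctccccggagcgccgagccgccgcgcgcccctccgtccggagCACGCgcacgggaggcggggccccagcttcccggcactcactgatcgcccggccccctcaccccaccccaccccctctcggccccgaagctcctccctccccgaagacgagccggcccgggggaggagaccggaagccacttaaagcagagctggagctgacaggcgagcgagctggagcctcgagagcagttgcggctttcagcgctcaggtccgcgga
Cyp1b1: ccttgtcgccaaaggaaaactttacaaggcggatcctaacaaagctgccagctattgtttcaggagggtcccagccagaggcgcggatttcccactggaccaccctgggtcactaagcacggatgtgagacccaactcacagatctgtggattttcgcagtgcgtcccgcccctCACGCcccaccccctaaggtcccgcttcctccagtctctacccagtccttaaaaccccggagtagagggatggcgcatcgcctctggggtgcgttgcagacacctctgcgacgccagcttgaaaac
Cyp2s1: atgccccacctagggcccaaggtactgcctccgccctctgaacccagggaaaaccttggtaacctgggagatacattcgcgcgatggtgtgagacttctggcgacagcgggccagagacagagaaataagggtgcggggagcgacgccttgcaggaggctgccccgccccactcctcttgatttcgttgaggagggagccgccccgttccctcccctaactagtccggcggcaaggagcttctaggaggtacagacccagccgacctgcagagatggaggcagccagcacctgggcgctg

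The term log2 signal means the log2 of a deposited intensity minus that of the array's 75th percentile. Signals are compared between arrays for 1 probe and never between probes. The 75th percentile was an intensity between 337 and 527, 63.6% to 67.0% of the spots were well above background, and 0 probes were saturated. All 8 arrays lay on 1 slide, with the DMBA arrays in 1 row and the acetone arrays in the other, and the effects of treatment and row cannot be told apart. *Cd109* itself was well above background on 4 arrays only. Its log2 signal was 1.09 and 1.67 in CD109+/+ skin after DMBA and −7.85 and −7.52 in CD109-/- skin after DMBA, at least 124-fold lower by the bound that the dimmest well-measured probes set (adjusted p = 0.201, limma). The acetone arrays labelled CD109+/+ gave 2.29 (replicate 1) and −6.28 (replicate 2), and those labelled CD109-/- gave 1.89 (replicate 1) and −7.90 (replicate 2). The signal thus ran against the label on the array labelled CD109+/+ acetone replicate 2 and on the array labelled CD109-/- acetone replicate 1. The sources used here do not say whether the *Cd109* probe falls within the deletion. Each result is therefore given as labelled first, then with these arrays exchanged between the genotypes, an arrangement read from the values of these same arrays, so that its p-values are no independent evidence of a genotype effect. With both arrays left out, 1 array of each genotype remained in acetone skin, and that fit cannot tell which arrangement is right.

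The 8 arrays are named by their *Cd109* signal where useful: 4 were high (both CD109+/+ DMBA arrays, CD109+/+ acetone replicate 1 and CD109-/- acetone replicate 1) and 4 were low. Markers of the epidermis were well above background on all 8 arrays for 6 of 6 genes, with mean log2 signals of 5.84 to 6.79. Markers of the hair shaft and inner root sheath were split as *Cd109* was. Of 12 such genes, 11 were on the array and 7 were well above background on all arrays, and their mean log2 signal lay between −4.62 and −4.00 on the Cd109-high arrays and between 4.29 and 7.92 on the Cd109-low arrays. On the Cd109-high arrays, the mean signals of macrophage (3.39 to 4.24 against 1.84 to 3.23), endothelial (1.28 to 1.52 against 0.26 to 0.69), adipocyte (3.42 to 4.25 against 1.84 to 2.78) and skeletal muscle markers (5.36 to 6.23 against 3.33 to 4.71) were all above those of the Cd109-low arrays. The sebaceous gland, Langerhans cell, fibroblast and epidermal lists overlapped. In whole skin, fewer cells of a type and less RNA per cell cannot be told apart, and the part of these cells in the results that follow was not tested.

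*Ahr*, the receptor, was well above background on all 8 arrays. The log2 signal of its brighter probe was 2.54 and 3.01 in CD109+/+ skin after DMBA and 3.16 and 2.18 in CD109-/- skin after DMBA. In acetone skin it was 3.47 and 2.60 on the CD109+/+ arrays and 3.48 and 2.50 on the CD109-/- arrays. The groups overlapped, within a spread of 1.30 over the arrays. Its second probe was much nearer to background and ranged from −5.31 to −3.90. *Arnt*, the partner of the receptor, varied least, over a 1.39-fold range. Its log2 signal was 2.17 and 2.03 in CD109+/+ and 2.24 and 2.33 in CD109-/- skin after DMBA, and 2.17, 1.85, 2.25 and 2.07 on the acetone arrays in the order CD109+/+ 1 and 2, CD109-/- 1 and 2. The second *Arnt* probe ranged from −1.27 to −0.67.

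*Ahrr*, the repressor that competes with the receptor for Arnt, varied most, over a 5.30-fold range. Its log2 signal was −0.70 and −0.42 in CD109+/+ and −0.86 and −1.85 in CD109-/- skin after DMBA. On the acetone arrays it was 0.05 and −1.18 (CD109+/+) and 0.56 and −1.31 (CD109-/-). The acetone replicates of either genotype were far apart, and all 4 Cd109-high arrays lay above all 4 Cd109-low arrays, by at least 0.17. A second *Ahrr* probe was well above background on 3 of 8 arrays and ranged from −7.93 to −4.61. *Tiparp* encodes a mono-ADP-ribosyltransferase that modifies the receptor. Its brighter probe gave 1.49 and 1.57 in CD109+/+ and 1.03 and 0.45 in CD109-/- skin after DMBA, and 1.44, 0.98, 1.53 and 1.02 on the acetone arrays in the same order. Again the Cd109-high arrays, at 1.44 to 1.57, lay above the Cd109-low arrays, at 0.45 to 1.03. The second *Tiparp* probe was split the same way, at 0.34 to 0.56 against −0.13 to 0.33, with a gap of only 0.01.

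*Cyp1a1*, the P450 most readily induced through the receptor, gave log2 signals of 2.23 and 2.76 in CD109+/+ and 2.71 and 1.74 in CD109-/- skin after DMBA. On the acetone arrays it was 2.32 and 1.69 (CD109+/+) and 2.46 and 1.31 (CD109-/-). The DMBA arrays, at 1.74 to 2.76, overlapped the acetone arrays, at 1.31 to 2.46. *Cyp1a2*, mainly a liver enzyme, was not well above background on any of the 8 arrays, at −8.31 to −6.89, and was not tested. *Cyp1b1*, a P450 that forms mutagenic DMBA diol epoxides outside the liver, gave 1.61 and 2.04 in CD109+/+ skin after DMBA and 1.57, 1.75, 1.75 and 1.76 on the acetone arrays. In CD109-/- skin after DMBA it was 0.99 and 0.90, below the other 6 arrays. *Cyp2s1*, a P450 of epithelia that the receptor can also induce, gave 1.53 and 1.43 in CD109+/+ and 2.43 and 3.26 in CD109-/- skin after DMBA, and 1.55, 3.35, 1.61 and 3.17 on the acetone arrays. It was the only tested member that was higher on the Cd109-low arrays, at 2.43 to 3.35 against 1.43 to 1.61.

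*Ephx1*, which hydrolyses the first epoxide to a diol, gave log2 signals of 4.89 and 5.02 in CD109+/+ and 4.71 and 4.11 in CD109-/- skin after DMBA with its brighter probe. On the acetone arrays it was 5.06 and 4.09 (CD109+/+) and 5.46 and 4.10 (CD109-/-). The Cd109-high arrays lay above the Cd109-low arrays by at least 0.18, and its second probe showed the same, at 1.10 to 1.57 against 0.26 to 0.90. *Por*, the reductase that supplies every microsomal P450 with electrons, gave 4.34 and 4.41 in CD109+/+ and 4.54 and 3.88 in CD109-/- skin after DMBA, and 4.66, 3.98, 4.56 and 3.85 on the acetone arrays. Its groups overlapped within a 1.75-fold range.

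Counts of members, here and in every comparison, are over the brightest tested probe of each gene. On these probes, 4 of the 9 tested members had Cd109-high and Cd109-low arrays that did not overlap (*Ahrr*, *Tiparp*, *Cyp2s1* and *Ephx1*), beside 27.1% of all 36921 probes tested. The DMBA and the acetone arrays did not overlap in 0 of the 9 members, beside 6.23% of all probes. The largest spread within a labelled group was that of the acetone replicates for *Ahrr*, *Cyp2s1*, *Ephx1* and *Cyp1a1*, that is, between arrays of 1 genotype label that differed in *Cd109* signal.

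**Figure D1:**
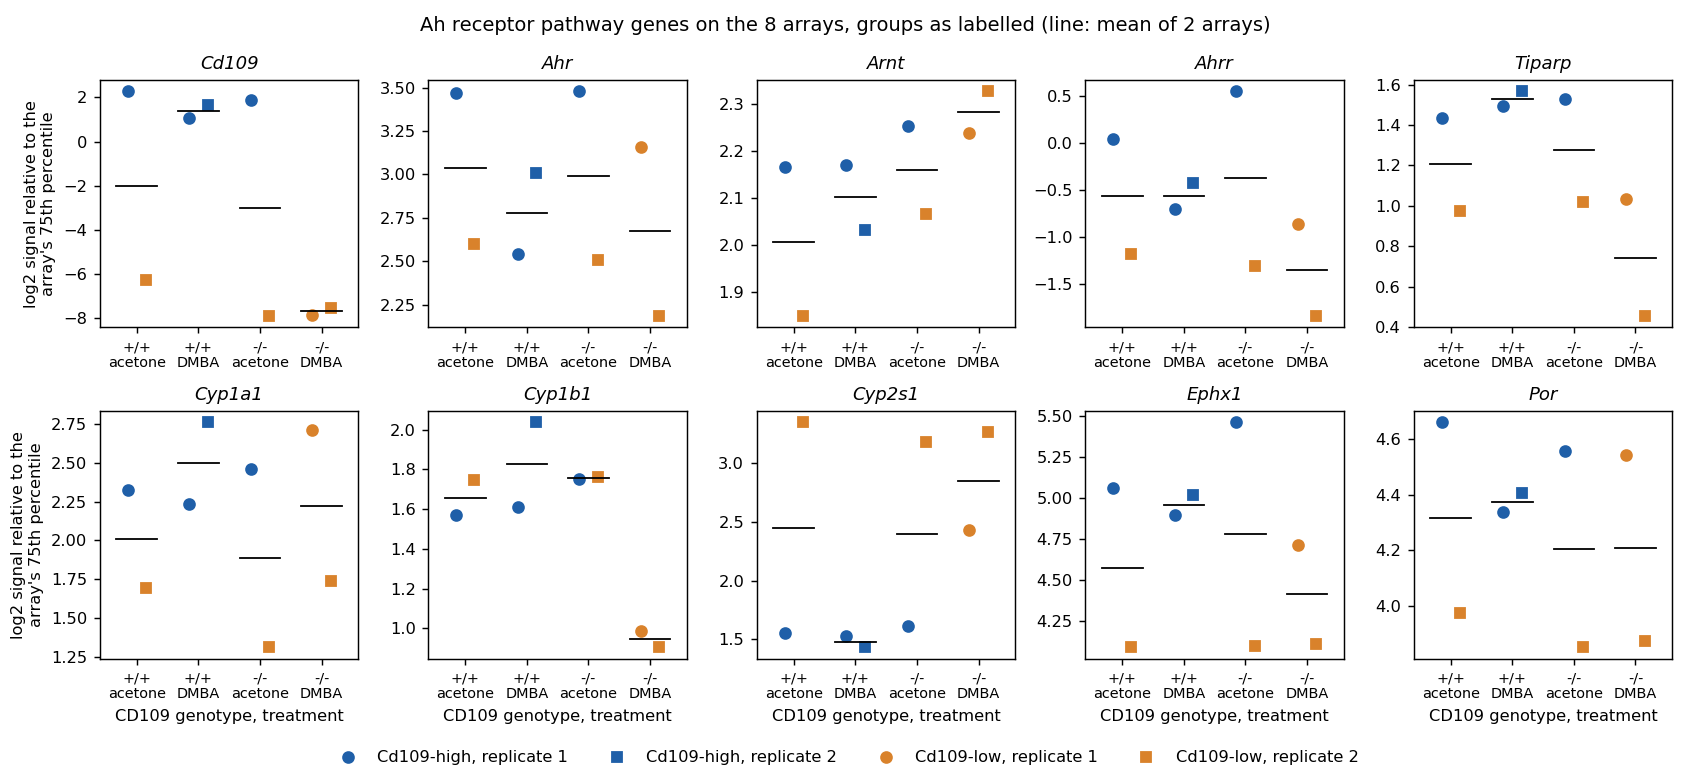
Log2 signal of *Cd109* and the 9 tested members on each of the 8 arrays (vertical axes, log2 signal relative to the 75th percentile of the array, with a separate scale for each gene), by labelled genotype and treatment, with circles for replicate 1, squares for replicate 2 and a line at the mean of the 2 arrays. *Cyp2s1* is at 2.43 to 3.35 on all Cd109-low arrays (orange) and 1.43 to 1.61 on all Cd109-high arrays (blue), and *Cyp1b1* is lowest, at 0.99 and 0.90, in CD109-/- skin after DMBA.

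The first question was whether DMBA changed the expression of its own activating pathway within 24 h. Averaged over both genotypes, no rise of *Cyp1a1* beyond the spread between arrays was detected. Its mean log2 signal was 2.50 ± 0.38 after DMBA and 2.01 ± 0.45 after acetone in CD109+/+ skin, and 2.22 ± 0.69 against 1.89 ± 0.81 in CD109-/- skin (SD, n = 2 arrays each). The log2 fold change over both genotypes was 0.41 (SE 0.37, 95% interval −0.49 to 1.32, adjusted p = 0.716, limma), that is, 1.33-fold with an interval of 0.711- to 2.50-fold. It was 0.49 in CD109+/+ skin (adjusted p = 0.764) and 0.34 in CD109-/- skin (adjusted p = 0.754), and the latter turned negative when CD109-/- DMBA replicate 1 (−0.15) or CD109-/- acetone replicate 2 (−0.24) was left out.

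No other member passed either. Over both genotypes, 0 of 9 tested members passed at an adjusted p under 0.05, beside 0.0298% of all probes. At an unadjusted p under 0.05 there were 0, beside 11.5% of all probes. The log2 fold change was −0.29 for *Ahr* (SE 0.36, adjusted p = 0.802), 0.11 for *Arnt* (SE 0.13, adjusted p = 0.789) and −0.49 for *Ahrr* (SE 0.52, adjusted p = 0.765). That of *Cyp1b1*, −0.32 (SE 0.14), had the smallest adjusted p of the members, 0.457. The median over the 9 members was −0.10, beside 0.00 over the 16769 genes tested. In CD109+/+ skin the count was 0 of 9, beside 0.184% of all probes, and 0 without adjustment, beside 11.5%. In CD109-/- skin it was 0 of 9, beside 0% of all probes. By limma, 1 member had an unadjusted p under 0.05, beside 14.3% of all probes. That member was *Cyp1b1*, at a log2 fold change of −0.81 (adjusted p = 0.258, SE 0.19, DMBA below acetone in 4 of 4 array pairs). It was also the only member under 0.05 by the methods' t-test without adjustment, where 2078 of 36921 probes were. By that test with adjustment there were 0 members and 0 probes. For *Tiparp* the value was −0.53 (SE 0.30, adjusted p = 0.447).

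The exchange of the arrays leaves the effect of DMBA averaged over both genotypes as it is and changes only its error. For *Cyp1a1* the interval narrowed to −0.21 to 1.04 (adjusted p = 0.399), and for *Cyp1b1* the adjusted p was 0.21. In all, 0 of 9 members passed over both genotypes (1.5% of all probes did), 0 in CD109+/+ skin (3.51%) and 0 in CD109-/- skin (0.0135%). Those at an unadjusted p under 0.05 were 1, 0 and 1 members, beside 21.3%, 22.2% and 17.5% of all probes. In CD109-/- skin the log2 fold change was then 0.72 for *Cyp1a1* (SE 0.36, adjusted p = 0.357), with DMBA above acetone in 4 of 4 array pairs. It was −0.81 for *Cyp1b1* (SE 0.17, adjusted p = 0.131). Of the dimmer probes, those of *Ahr* and *Arnt* had unadjusted p-values under 0.05 and did not pass. The second *Ahr* probe had −0.77 in CD109+/+ skin (adjusted p = 0.215) and 0.78 in CD109-/- skin (adjusted p = 0.272), and the second *Arnt* probe had 0.49 in CD109+/+ skin (adjusted p = 0.1) and 0.26 over both genotypes (adjusted p = 0.18). Markers of neutrophils moved with the treatment label, with mean log2 signals of −0.42 to 1.29 after DMBA and −1.97 to −0.74 after acetone over 8 genes, 5 of them well above background on all arrays, and their part in the DMBA effects was not tested.

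**Figure D2:**
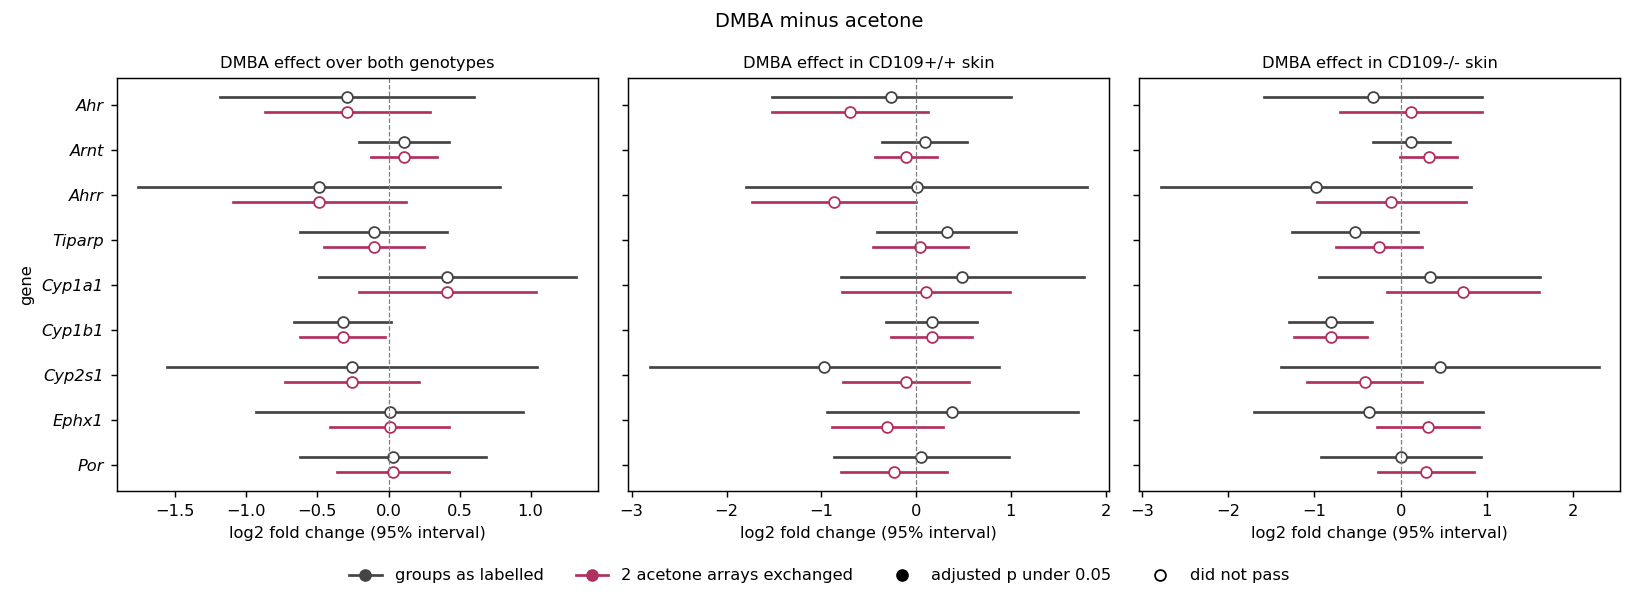
Log2 fold change of each tested member, DMBA minus acetone, with its 95% interval (horizontal axes), over both genotypes and within either, with the groups as labelled (grey) and with the 2 acetone arrays exchanged (red), where an open circle marks a member that missed the threshold. No circle is filled, and *Cyp1a1* lies at 0.41 with an interval of −0.49 to 1.32 over both genotypes as labelled.

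The second question was whether the pathway differed between CD109-/- and CD109+/+ skin. After DMBA, where the labels and the *Cd109* signal of all 4 arrays are in accord, *Cyp1b1* averaged 0.95 ± 0.06 in CD109-/- and 1.82 ± 0.30 in CD109+/+ skin on the log2 signal scale (SD, n = 2 arrays each). The difference was −0.88 (SE 0.19, 95% interval −1.36 to −0.40), or 0.543-fold, lower in 4 of 4 array pairs, and did not pass over all probes (adjusted p = 0.104, limma). On the same arrays, the macrophage markers averaged 2.63 and 1.84 in CD109-/- skin and 4.17 and 4.07 in CD109+/+ skin. The endothelial, adipocyte and skeletal muscle markers were also lower in CD109-/- skin, and the hair markers were higher. On the acetone arrays labelled CD109+/+, the macrophage markers averaged 3.39 and 2.63 and *Cyp1b1* was at 1.57 and 1.75. On those labelled CD109-/-, the markers averaged 4.24 and 3.23 and *Cyp1b1* was at 1.75 and 1.76. The part of these cells in the *Cyp1b1* difference was not tested. *Tiparp* differed by −0.79 (SE 0.30, adjusted p = 0.175), *Ahrr* by −0.80 (SE 0.73, adjusted p = 0.496), *Ephx1* by −0.55 (SE 0.54, adjusted p = 0.526) and *Cyp2s1* by 1.37 (SE 0.75, adjusted p = 0.285), each in the same direction in 4 of 4 array pairs. As labelled, 0 of 9 members passed after DMBA, beside 0.0921% of all probes. By limma, 2 members had an unadjusted p under 0.05, beside 26.1% of all probes. By the methods' t-test there were 0, beside 6991 of 36921 probes.

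In acetone skin as labelled, the log2 differences of the 9 members lay between −0.12 and 0.21. Of the 9, 0 passed, beside 0.00542% of all probes, and 0 had an unadjusted p under 0.05, beside 2.15%. Over both treatments 0 passed, beside 0.00271% of all probes, with 1 member at an unadjusted p under 0.05, beside 12.3%. When the DMBA effects of the 2 genotypes were set against each other, 0 of 9 members passed, beside 0% of all probes. Without adjustment, 1 member had a p under 0.05, beside 15.4% of all probes. That member was *Cyp1b1*, with a difference of −0.98 (SE 0.28, adjusted p = 0.282).

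With the arrays exchanged, the residual spread was smaller and several members passed. After DMBA, 3 of 9 members passed, beside 20.1% of all probes and 20.9% of all genes, each by its brightest probe. *Cyp1b1* (−0.88, SE 0.17, adjusted p = 0.0298) and *Tiparp* (−0.79, SE 0.20, adjusted p = 0.0465) were lower and *Cyp2s1* (1.37, SE 0.27, adjusted p = 0.0302) was higher in CD109-/- skin. These are the same 4 arrays and the same differences as before, and only the error, which is shared with the acetone arrays, had changed. By the methods' t-test, 0 members were under 0.05 here, beside 7008 of 37147 probes. In acetone skin 2 of 9 passed, beside 8.89% of all probes and 11.6% of all genes. *Cyp2s1* was higher (1.68, SE 0.27, adjusted p = 0.024) and *Ephx1* lower (−1.17, SE 0.24, adjusted p = 0.0419) on the Cd109-low arrays. *Ahrr* had −1.55 (SE 0.35) and missed the threshold with its brighter probe (adjusted p = 0.0516). Its second probe passed (adjusted p = 0.0334), at least 1.75-fold lower where it was not well above background, whereas the second *Ephx1* probe missed (−0.93, adjusted p = 0.0796). The log2 differences of *Ahr* (−0.92, adjusted p = 0.135), *Cyp1a1* (−0.89, adjusted p = 0.165), *Por* (−0.70, adjusted p = 0.11), *Tiparp* (−0.48, adjusted p = 0.177) and *Cyp1b1* (0.09, adjusted p = 0.751) did not pass.

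Over both treatments with the arrays exchanged, 4 of 9 members passed, beside 30.8% of all probes and 36.1% of all genes. *Cyp2s1* was 2.87-fold higher in CD109-/- skin (log2 1.52, SE 0.19, 95% interval 1.05 to 1.99, adjusted p = 0.00783), with all 16 array pairs in that direction. *Ahrr* was lower, with a log2 difference of −1.17 (SE 0.25, adjusted p = 0.0222), as were *Ephx1* with −0.86 (SE 0.17, adjusted p = 0.0194) and *Tiparp* with −0.63 (SE 0.14, adjusted p = 0.0254), in 16 of 16 pairs each. The second probes of *Ephx1* (−0.77, adjusted p = 0.0282) and *Ahrr* (−1.68, adjusted p = 0.0257) passed too, and that of *Tiparp* missed (−0.32, adjusted p = 0.0519). *Cyp1b1* missed the threshold at −0.39 (adjusted p = 0.0563). When the DMBA effects of the 2 genotypes were set against each other, 0 of 9 members passed, beside 0.0269% of all probes. *Cyp1b1* had an unadjusted p under 0.05 (−0.97, SE 0.24, adjusted p = 0.132), the only one on the brightest probes, beside 21.1% of all probes. The second probes of *Ahr* (1.55, adjusted p = 0.148), *Ahrr* (2.50, adjusted p = 0.166) and *Arnt* (−0.46, adjusted p = 0.231) were also under 0.05 without adjustment.

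These calls rested on single arrays to different degrees. Those after DMBA and in acetone skin were lost in most of the 8 fits that each left out 1 array. After DMBA, the log2 difference then ran from −1.09 to −0.67 for *Cyp1b1*, −1.08 to −0.50 for *Tiparp* and 0.95 to 1.78 for *Cyp2s1*. In acetone skin it ran from 1.59 to 1.76 for *Cyp2s1* and −1.37 to −0.96 for *Ephx1*. With the dim probes also kept in the test, 0 members passed after DMBA and 0 in acetone skin, where 3141 and 1322 of all 55458 probes did. *Cyp2s1* over both treatments passed in 8 of 8 fits that each left out 1 array, at adjusted p-values of 0.00219 to 0.0394 and log2 differences of 1.31 to 1.73. *Ahrr* and *Ephx1* passed in 3 of 8 such fits and *Tiparp* in 2 of 8. Leaving out CD109-/- DMBA replicate 1, which had the lowest hair marker signal of the Cd109-low arrays, raised the count over both treatments to 7 members and that after DMBA and in acetone skin to 6 each, and the share of all probes called rose as well, to 40.2%, 34.5% and 16.4%. Without CD109-/- DMBA replicate 2, the counts were 4, 1 and 6, beside 22.6%, 3.38% and 17.7% of all probes. Over the 8 fits, the log2 difference over both treatments ran from −1.42 to −0.93 for *Ahrr*. It ran from −1.01 to −0.71 for *Ephx1* and from −0.78 to −0.49 for *Tiparp*.

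**Figure D3:**
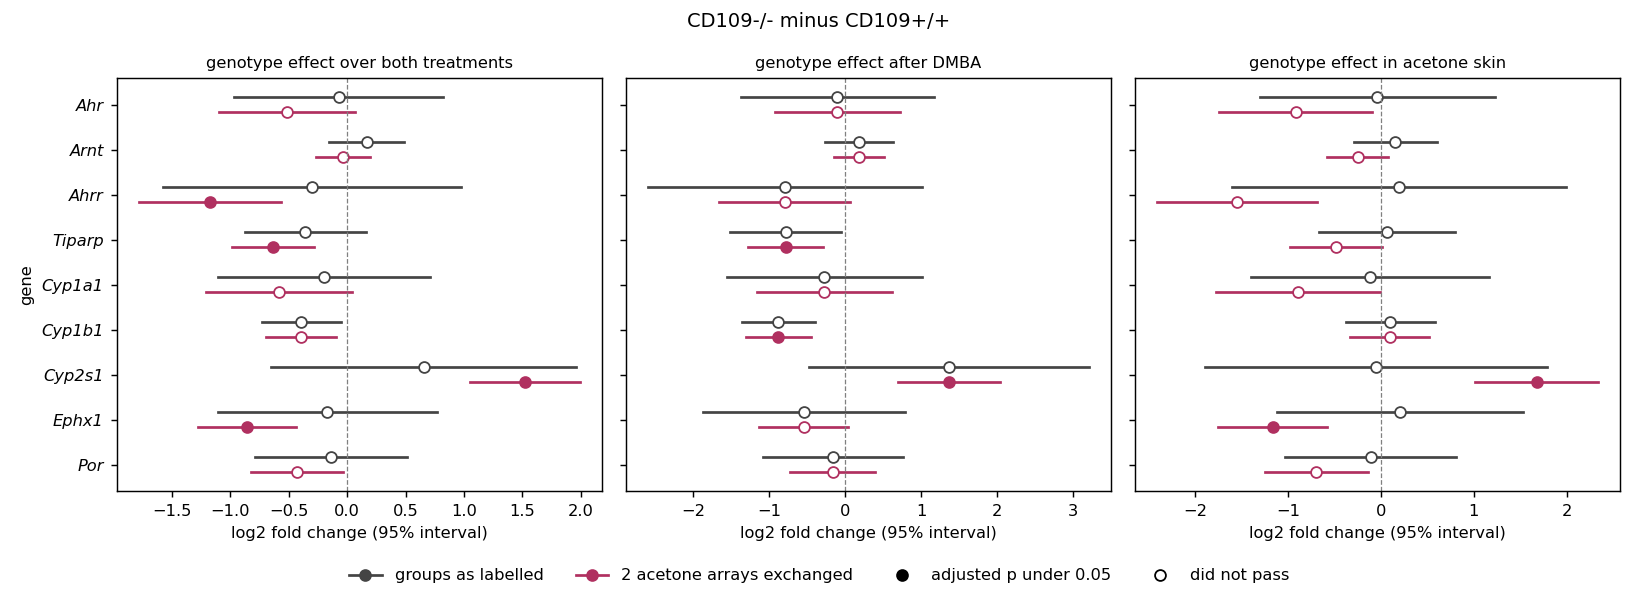
Log2 difference of each tested member, CD109-/- minus CD109+/+, with its 95% interval (horizontal axes), over both treatments, after DMBA and in acetone skin, with the groups as labelled (grey) and with the 2 acetone arrays exchanged (red), where a filled circle marks an adjusted p under 0.05. No grey circle is filled, and *Cyp2s1* is filled in red in all 3 panels, at 1.52, 1.37 and 1.68.

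The 4 members whose Cd109-high and Cd109-low arrays did not overlap are set beside the hair markers, array by array. They were picked by a split that falls on the same arrays as that of the hair markers. The separation of the 2 clusters in each was therefore given beforehand. CD109-/- DMBA replicate 1 had the lowest mean hair marker signal of the Cd109-low arrays, 4.29, and was the Cd109-low array nearest to the Cd109-high arrays for *Cyp2s1* (2.43), *Ahrr* (−0.86), *Ephx1* (4.71) and *Tiparp* (1.03). CD109-/- DMBA replicate 2 had the highest, 7.92, and the lowest *Ahrr* (−1.85) and *Tiparp* (0.45). In between, CD109-/- acetone replicate 2 (5.98) had *Ahrr* at −1.31 and *Tiparp* at 1.02. CD109+/+ acetone replicate 2 (7.10) had *Ahrr* at −1.18 and *Tiparp* at 0.98. *Cyp2s1* was highest (3.35) and *Ephx1* lowest (4.09) on another array, CD109+/+ acetone replicate 2, close to the 3.26 and 4.11 of CD109-/- DMBA replicate 2. Since the arrays fall into separate clusters, no correlation is given, and the part of hair cells in these 4 members was not tested.

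**Figure D4:**
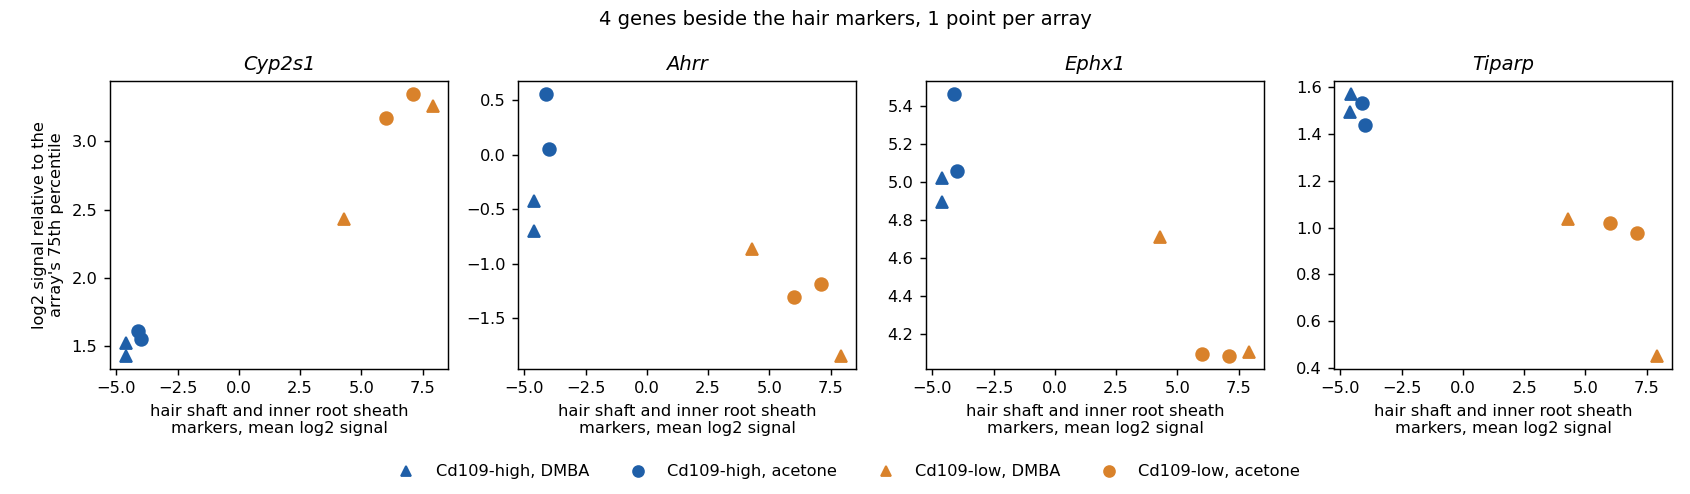
Log2 signal of *Cyp2s1*, *Ahrr*, *Ephx1* and *Tiparp* (vertical axes, relative to the 75th percentile of the array) beside the mean log2 signal of 11 hair shaft and inner root sheath markers (horizontal axes), 1 point per array, with triangles for DMBA and circles for acetone. The Cd109-high arrays (blue) lie at hair marker signals of −4.62 to −4.00 and the Cd109-low arrays (orange) at 4.29 to 7.92, and the orange triangle at 4.29 has the value nearest to the blue points in each panel.

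Other genes of the pathway were followed through 4 lists. The first held 8 genes of the receptor complex (chaperones, the ubiquitin ligase subunits Cul4b and Ddb1, a coactivator and Arnt2), of which 8 were tested. The second held 14 other genes induced through the receptor, of which 13 were tested, the third 5 electron donors of microsomal P450, all tested, and the fourth 10 enzymes that conjugate polycyclic metabolites, of which 8 were tested. As labelled, 0 genes of any list passed in any of the 7 comparisons, beside 0% to 0.191% of all genes. The median log2 effect of DMBA over both genotypes was −0.02 for the complex, 0.12 for the other targets, −0.03 for the electron donors and 0.07 for the conjugating enzymes, beside 0.00 over all genes.

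Among the other targets, the smallest p-values for the effect of DMBA over both genotypes were those of *Xdh*, which encodes xanthine dehydrogenase (log2 fold change −0.61, SE 0.16, adjusted p = 0.288), and *Ugt1a6a*, a glucuronosyltransferase gene (0.61, SE 0.23, adjusted p = 0.401). In CD109+/+ skin they were those of *Nqo1*, the quinone reductase (1.03, SE 0.36, adjusted p = 0.378), and *Nfe2l2*, which encodes Nrf2 (0.56, SE 0.21, adjusted p = 0.41), both higher after DMBA in 4 of 4 array pairs. In CD109-/- skin they were those of *Xdh* (−1.40, SE 0.23, adjusted p = 0.257) and *Ugt1a6a* (1.08, SE 0.33, adjusted p = 0.285). Of the conjugating enzymes, the glutathione transferases *Gstp2* and *Gstp1* came first in CD109+/+ skin, at 0.76 (SE 0.21, adjusted p = 0.286) and 0.83 (SE 0.23, adjusted p = 0.293). *Gstp1* and *Gstp2* are near-identical, as are the *Ugt1a6* genes, so their probes may not tell them apart. In the receptor complex, *Cul4b* (−0.27, SE 0.14, adjusted p = 0.522) and *Ptges3* (0.21, SE 0.15, adjusted p = 0.629) had the smallest p-values over both genotypes, and among the electron donors these were *Cyb5r3* (−0.13, adjusted p = 0.87) and *Cyb5a* (0.13, adjusted p = 0.871).

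With the arrays exchanged, 0 genes of the lists passed in the effects of DMBA or in their difference. Of all genes, 1.90% passed over both genotypes, 4.59% in CD109+/+ skin, 0.0237% in CD109-/- skin and 0.0415% for the difference. Over both treatments, 36.1% of all genes passed, and of the lists 2 of 8 complex genes were higher in CD109-/- skin, 2 of 13 other targets were higher and 6 lower, 2 of 5 electron donors were lower and 7 of 8 conjugating enzymes were lower. Their median differences were 0.08, −0.60, −0.45 and −0.71, beside −0.05 over all genes. Among the lower genes were *Gsta4*, a glutathione transferase of lipid aldehydes (log2 difference −1.79, SE 0.15, adjusted p = 0.0035), and *Serpinb2*, a serine protease inhibitor (−1.44, SE 0.10, adjusted p = 0.00255). *Nqo1* (adjusted p = 0.0108) and *Nfe2l2* (−0.58, SE 0.09, adjusted p = 0.0129) were lower too, in 16 of 16 array pairs each. *Cyb5r1* and *Cyb5r3*, cytochrome b5 reductases, differed by −0.64 (adjusted p = 0.0219) and −0.65 (adjusted p = 0.0394). The chaperone *Hsp90aa1* (0.46, SE 0.10, adjusted p = 0.0257), its cochaperone *Ptges3* (0.33, SE 0.09, adjusted p = 0.0364) and the amino acid transporter *Slc7a5* (1.05, SE 0.24, adjusted p = 0.0252) were higher. After DMBA, 20.9% of all genes passed, with 1 of 13 other targets higher and 4 lower and 5 of 8 conjugating enzymes lower. The lower targets included *Nqo1* (−1.33, SE 0.21, adjusted p = 0.0224) and *Nfe2l2* (−0.83, SE 0.13, adjusted p = 0.023). In acetone skin, 11.6% of all genes passed, with 2 of 13 other targets and 1 of 8 conjugating enzymes lower. These divisions also separate the hair markers, whose part was not tested.

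The genes whose log2 signals over the 8 arrays were most like those of 5 members were looked up among all 16769 genes tested, by Pearson's r and as a description only, since all arrays share a slide and fall into clusters by *Cd109* signal. The genes most like *Ahr* were *Mfsd14b* (r = 0.993), *Ipmk* (0.986) and *Mob2* (0.986). Those most like *Ahrr* were *H2-T-ps* (0.995), *Tmem135* (0.995) and *Amz1* (0.989), and those most like *Tiparp* were *AI987944* (0.997) and *Nampt* (0.996). For *Cyp1a1* they were *Lpcat3* (0.986), *Stap2* (0.979) and *Utf1* (0.976), and for *Cyp1b1* they were *Lin28a* (0.985), *Wfdc13* (0.964) and *Adra1b* (0.964). No member of the pathway was among the 3 genes most like another member.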

How the data were processed

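Total RNA of whole skin was labelled with 1 dye and hybridized to Agilent mouse arrays, 8 in all, 2 per group. Per the file headers, the authors used Agilent Feature Extraction 11.5.1.1, and the deposited intensity is linear, background-subtracted and detrended, with arrays not normalized to each other. In the deposited value table, each array's intensities are multiplied by a constant of its own.

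Control spots and spots marked as outliers were left out, and the remaining spots of a probe were averaged, which kept 55458 of 55681 probes. The log2 of the 75th percentile of each array was subtracted. Probes were named through RefSeq accessions, of which 28026 of 29796 matched a gene. Tests covered the probes that were well above background on the 2 arrays of some group (36921 probes as labelled, 37147 with the 2 arrays exchanged). Groups were compared with limma 3.58.1 in R 4.3.3, with 1 mean per group, a moderated variance over all 8 arrays and Benjamini-Hochberg adjustment over all probes, at a threshold of 0.05. Differences are on the log2 scale, and 95% intervals use the moderated degrees of freedom. The brightest tested probe stands for a gene. The scripts were tested on simulated data.

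The members and the lists were chosen with earlier results of these data known. The text names all 10 members and *Cd109*, genes of the other lists by smallest p (up to 4 that passed in a comparison, otherwise 2), given for the main comparisons, and the 3 genes most like each of 5 members. One gene that this rule picks is not reported here. Promoters are RefSeq windows in build GRCm38.p6. The normexp alternative used the deposited median intensities with an offset of 50. Slide position could not be separated from treatment. The alternatives tried were quantile normalization, median centring, normexp, the filter on dim probes removed or applied to every array, fits restricted to the arrays compared, a replicate block, the methods' t-test, the value table, the mean of a gene's probes, leaving out each array or both arrays in doubt, and exchanging the latter. The exchanged arrangement combined with another normalization, without the filter or with the methods' t-test was chosen after seeing the data.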

Additional observations from a re-analysis of the deposited data

Results flagged for a closer look

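With the 2 acetone arrays exchanged, the brighter of the 2 *Ephx1* probes was higher after DMBA in every array pair of CD109-/- skin and lower in every array pair of CD109+/+ skin. The difference between these effects was 0.62 on the log2 scale (SE 0.34, 95% interval −0.21 to 1.45) and did not pass over all probes (adjusted p = 0.333, limma). The 4 array pairs of either genotype share 4 arrays, and as labelled the pairs of both genotypes ran in both directions. The second *Ephx1* probe, also well above background on all 8 arrays, did not show this pattern. With the arrays exchanged its pairs were divided 2 of 4 in either genotype, with a difference of 0.31 (SE 0.36, adjusted p = 0.644, limma), and as labelled it was higher after DMBA in 4 of 4 pairs of CD109+/+ skin (log2 0.40).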

How the results depend on the processing

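As labelled, 0 members passed under every alternative with adjustment that kept all arrays, in the comparisons it was run on. These were all 7 comparisons, except that fits restricted to the arrays compared and the methods' t-test covered 4. Of all probes, at most 112 passed in these alternatives, apart from 1618 for the genotypes after DMBA with the replicate block. Without adjustment, the methods' t-test called 1 member, *Cyp1b1*, for DMBA in CD109-/- skin, beside 2078 of 36921 probes. Exchanging the 2 arrays moved the count to 3 for the genotypes after DMBA, 2 in acetone skin and 4 over both treatments. The log2 fold change of *Cyp1a1* for DMBA in CD109-/- skin was −0.15 without CD109-/- DMBA replicate 1 and −0.24 without CD109-/- acetone replicate 2, against 0.34 with all arrays, and ranged up to 0.91 as single arrays were left out. Of 63 member fold changes as labelled, 41 changed sign under at least 1 of 20 other settings, the largest of these 1.42 in size. With the arrays exchanged 18 of 63 did under at least 1 of 14, the largest of these 0.41 in size. Some of these settings cannot change a sign, since the filters on dim probes, the t-test and leaving out an array not compared keep the fold change as it is. With the arrays exchanged, leaving out 1 array gave 0 to 6 members after DMBA, 0 to 6 in acetone skin and 1 to 7 over both treatments, beside 0.322% to 34.5%, 1.45% to 17.7% and 6.17% to 40.2% of all probes. Without the filter on dim probes, the counts after DMBA and in acetone skin were 0 and 0, beside 3141 and 1322 of 55458 probes. Median centring gave 1 in acetone skin, beside 2643 of 37147 probes. With normexp, 1 member passed for DMBA in CD109-/- skin, beside 4203 of 37147 probes. It did so too by the methods' t-test without adjustment, beside 2987 probes. That t-test gave 0 after DMBA and 7 in acetone skin, where 7008 and 9127 of all 37147 probes were called. With adjustment it gave 0 and 0. The cause of these moves was not tested.

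The labels share replicate numbers but do not say that same-numbered arrays are paired, and the correlation of their deviations ran from −0.08 to 0.73. The 0.73 was that of CD109+/+ with CD109-/- acetone skin. There, both replicate 1 arrays were Cd109-high and both replicate 2 arrays were Cd109-low, so that the replicate number coincides with the *Cd109* signal. With the replicate number as a block, 0 members passed in every comparison, and the probes called went from 11 to 1, 68 to 33, 0 to 1, 34 to 1618, 2 to 0, 1 to 0 and 0 to 0 in the order of DMBA over both genotypes, in CD109+/+ and in CD109-/- skin, genotype after DMBA, in acetone skin and over both treatments, and their difference. Over the other settings with adjustment and all arrays kept, the probes called as labelled ranged from 0 to 28 for DMBA over both genotypes and from 0 to 112 in CD109+/+ skin. With the arrays exchanged, they ranged from 46 to 2026 for DMBA over both genotypes (557 as reported), 1 to 2461 in CD109+/+ skin (1305), 0 to 4203 in CD109-/- skin (5), 0 to 14945 for the genotypes after DMBA (7451), 4 to 5064 in acetone skin (3303), 7254 to 12134 over both treatments (11451) and 0 to 1056 for the difference of the DMBA effects (10). Precision is limited by 2 arrays per group, and *Cyp1a2* and the second *Ahrr* probe by signal near background.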
